A study of Mus musculus with 9 samples.

Results

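A set of 9 genes that damp signalling through the mitogen-activated protein kinase (MAPK) cascades were followed in mouse hippocampus: Dusp1, Dusp4, Dusp5, Dusp6, Spry1, Spry2, Spry4, Spred1 and Errfi1. They were chosen by name, as 9 of the 38911 genes obtained when the deposited transcript counts were summed per gene symbol. The 9 RNA sequencing libraries came from adult BALB/c mice, specific pathogen free, 3 animals per group, and total hippocampal RNA was depleted of ribosomal RNA. The group labelled CTL had a sham operation, the group labelled SAE (for sepsis-associated encephalopathy) had only cecal ligation and puncture (CLP), in which gut content leaks into the abdomen and causes sepsis, and the group labelled CCLF had CLP and 200 mg/kg of Cuscuta chinensis Lam. flavonoids. Sex, exact age, route of dosing and the time between operation and sampling are not stated in the labels. Each group is named by its label below, because acute inflammation genes ran against the labels: Lcn2, an acute-phase gene, had 13246 to 14822 counts in the libraries labelled CTL and 6 to 14 in those labelled SAE. Cxcl10, an interferon-induced chemokine gene, had 1396 to 6980 and 3 to 10. If the CTL and SAE labels were exchanged in the deposited table, which was not tested, every direction given below would be reversed.

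A growth factor that binds its receptor tyrosine kinase activates Ras, and Ras starts the relay of RAF, MEK and ERK kinases. Parallel relays end in the stress kinases p38 and JNK. The relay also switches on genes that turn it off. Dusp genes encode phosphatases that remove phosphate from the activated MAPK itself. Sprouty (Spry) and Spred proteins act further up, between receptor and RAF, and Errfi1, also called Mig6, binds and inhibits receptors of the EGF receptor family. In neurons and glia such genes are known as quickly induced and short-lived transcripts.

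Library totals were 4626519 to 4895474 counts. A list of 19 hippocampal neuron markers was looked at, of which 14 had enough counts for the test described below. Their values do not test whether the tissue is hippocampus. The glutamate transporter gene Slc17a7 had a mean of 5625 to 6318 CPM (counts per 1000000 counts of the library, after scaling) over the 3 groups, while Camk2a and Spink8 had 0 counts in every library, so those defining markers were not measured here. Of 14 genes that nearly every cell uses, a list chosen after the data were seen, the 10 with 1 RefSeq transcript had 313 to 49231 counts per library. The 4 with more than 1 had 0 to 19, among them Actb with 0 to 1 and Gapdh with 1 to 5. A low or zero value of a gene with several RefSeq transcripts therefore does not show low expression in this table, which touches Spry1 (4 transcripts) and Errfi1, Spred1 and Spry2 (2 each). The libraries labelled CCLF stood apart in their spread. Among genes with a mean of at least 100 counts, variance between the 3 libraries divided by the mean was under 0.1 in 20.6% of genes with the CCLF label, against 3.93% with CTL and 4.73% with SAE. Yet chi-square per gene between pairs of libraries was also highest with CCLF, at 9.06 to 11.3 against 3.61 to 7.93 with CTL and 2.34 to 4.29 with SAE, so these libraries were very close in some genes and far apart in others. The mean of the CCLF label also lay between the other 2 means in 99.1% of the 3912 genes called between SAE and CTL. For these reasons values with the CCLF label are described and not tested.

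Of the 9 genes 8 had enough counts for the test. The test was passed by 5. Dusp1, Errfi1 and Spred1 fell in the libraries labelled SAE relative to CTL, and Dusp4 and Dusp6 rose (edgeR's quasi-likelihood test, called at a Benjamini-Hochberg adjusted p under 0.05 over 8213 genes). Dusp5, Spry2 and Spry4 did not pass, and Spry1 had 0 counts throughout. Calls were common in this comparison: 47.6% of all tested genes were called, 23.7% higher and 23.9% lower. Beside that share, 5 of 8 is not read as a result about these genes as a set, and the values below concern each gene's size and direction. The median log2 fold of the 8 tested genes was 0.01, and that of all tested genes was 0.00. The same 5 genes had no overlap between the SAE and CTL libraries, which held for 55.7% of all tested genes. In tissue RNA fewer cells of a type and less RNA per cell cannot be told apart.

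**Figure D1:**
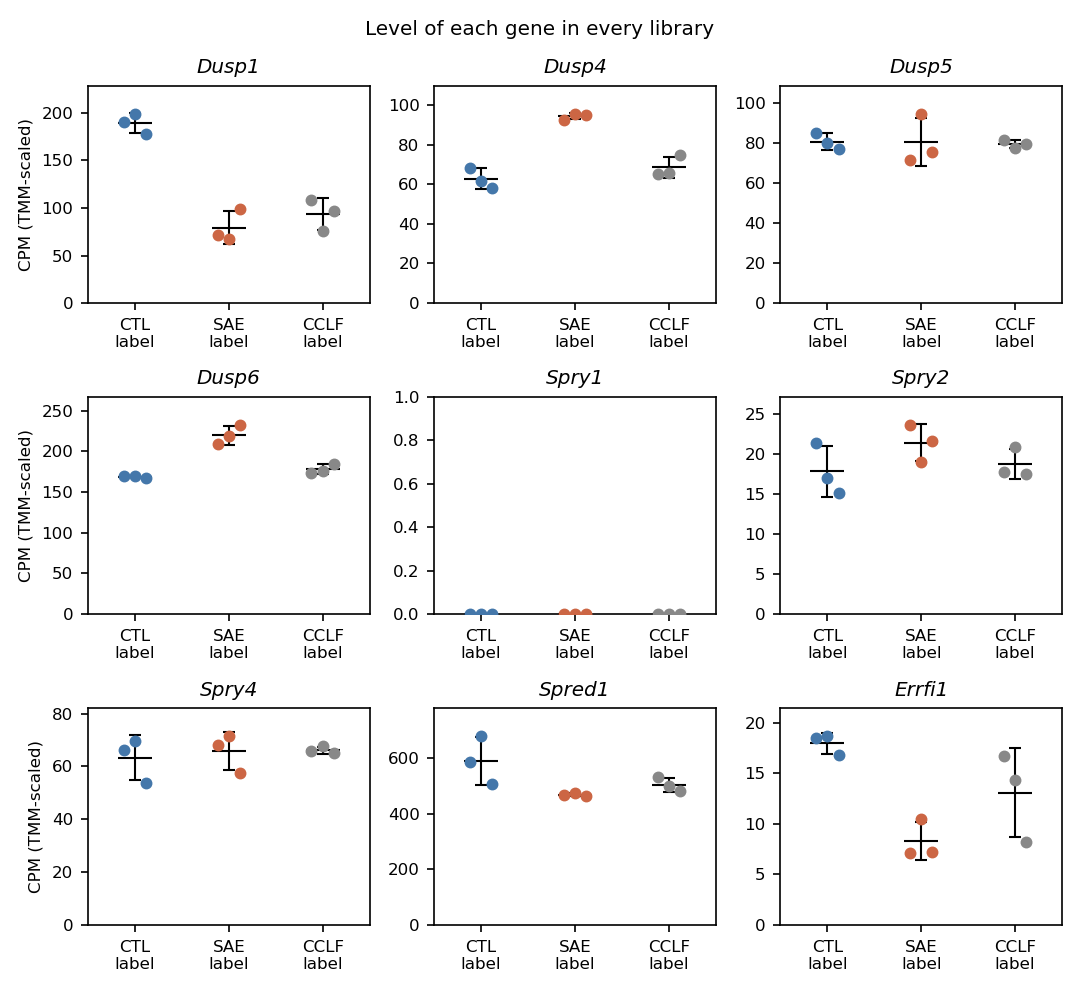
Level of each of the 9 genes in CPM (vertical axis, from 0) in every library, grouped by label; each point is a library, and the black marks are mean ± SD of 3. The SAE points of Dusp1 and Errfi1 lie below all CTL points, those of Dusp4 and Dusp6 above, and Spry1 is at 0.

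The upstream sequences of 4 of these genes are shown, picked after their values and matches were seen: Dusp1 and Errfi1, which fell, hold a shared element, Dusp5, which was not called, holds others, and Dusp6, which rose, holds none. Spred1 also fell and has no match, and Dusp4, which rose, has no window in the table, so the element does not follow direction over these genes, and a link to the counts was not tested. Each is the 250 bases before the RefSeq start in assembly GRCm38.p6, on the strand of the gene. The RefSeq promoter table held 7 of the 9 genes. Capitals mark matches, on either strand, to the cyclic AMP response element TGACGTCA or its 5-base part TGACG, and to the CArG box that serum response factor binds.
Dusp1, chr17:26508473-26508722, minus strand: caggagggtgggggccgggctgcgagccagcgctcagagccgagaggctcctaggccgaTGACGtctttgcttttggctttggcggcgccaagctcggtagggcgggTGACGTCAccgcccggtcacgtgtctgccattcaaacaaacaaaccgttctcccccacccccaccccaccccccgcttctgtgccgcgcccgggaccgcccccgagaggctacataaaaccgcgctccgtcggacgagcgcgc
Errfi1, chr4:150854820-150855069, plus strand: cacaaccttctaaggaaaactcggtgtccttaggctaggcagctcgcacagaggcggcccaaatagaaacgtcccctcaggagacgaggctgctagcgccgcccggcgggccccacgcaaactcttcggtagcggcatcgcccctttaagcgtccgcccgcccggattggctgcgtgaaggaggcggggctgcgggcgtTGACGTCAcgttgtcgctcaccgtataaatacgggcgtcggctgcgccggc
Dusp5, chr19:53528895-53529144, plus strand: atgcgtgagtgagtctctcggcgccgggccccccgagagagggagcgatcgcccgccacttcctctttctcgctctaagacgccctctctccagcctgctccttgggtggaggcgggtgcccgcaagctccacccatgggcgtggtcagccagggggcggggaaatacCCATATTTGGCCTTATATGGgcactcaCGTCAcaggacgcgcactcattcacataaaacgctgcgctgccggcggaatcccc
Dusp6, chr10:99262981-99263230, plus strand: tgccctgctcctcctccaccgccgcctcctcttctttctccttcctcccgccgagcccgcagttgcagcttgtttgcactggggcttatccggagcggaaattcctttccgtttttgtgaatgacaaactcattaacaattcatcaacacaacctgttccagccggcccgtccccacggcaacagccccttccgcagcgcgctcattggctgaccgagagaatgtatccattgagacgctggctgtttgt

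The full element TGACGTCA began 143 bases before the start of Dusp1 and 51 bases before that of Errfi1. It was present in 508 of 32851 upstream windows of that length in the table (1.55%). Dusp1 held a further TGACG 191 bases before its start, apart from the 2 that overlap within the full element. The 5-base part alone was found in 17.8% of windows. Dusp5 held 2 abutting CArG boxes, beginning 82 and 72 bases before its start, and a TGACG 55 bases before it. A CArG box was present in 1.47% of windows. Dusp6 held no match to any of the 8 motifs searched, which also took in TGANTCA (6.75% of windows), AGAACA (16.1%), CCGGAA (12%), TATAAA (12.4%) and the kappaB site by its name (5%). Spred1, Spry1 and Spry2 held none of them in their windows. Errfi1 has 2 RefSeq starts. The one shown lies 3 bases from the GENCODE start of the transcript that carried its counts, and also holds TATAAA 28 bases before it. The window of the other Errfi1 start held no match. These are matches of letters, and no binding was measured.

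Dusp1, the nuclear phosphatase that acts on p38 and JNK as well as ERK, fell. Its counts were 876, 959 and 858 in the libraries labelled CTL and 339, 315 and 482 in those labelled SAE. Every SAE library was below every CTL library, with SAE replicate 3 nearest to them. The mean level went from 189 ± 10.5 CPM (SD, n = 3) to 79.2 ± 17.4, a log2 fold of −1.26 ± 0.14 (SE) that equals 2.4-fold lower (adjusted p = 0.000241). Its counts with the CCLF label were 514, 359 and 461, which overlap the SAE range and stay under the CTL range.

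Dusp4, an inducible nuclear phosphatase of ERK and JNK, moved the other way. It had 314, 298 and 280 counts with the CTL label against 440, 447 and 462 with the SAE label. The SAE libraries lay close together and above all CTL libraries. The level rose from 62.7 ± 5.24 to 94.3 ± 1.48 CPM (SD, n = 3), a log2 fold of 0.58 ± 0.08 (adjusted p = 4.1e-06). With the CCLF label the counts were 308, 312 and 354, all under the SAE range.

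Dusp6, the cytoplasmic phosphatase selective for ERK and a standard readout of ERK activity, also rose. Its counts were 779, 819 and 810 with the CTL label and 993, 1026 and 1128 with the SAE label. The CTL libraries hardly differed in level, at 169 ± 1.02 CPM (SD, n = 3), and the SAE libraries stood above them at 220 ± 11.6. The log2 fold was 0.37 ± 0.06 (adjusted p = 1.02e-05). Counts with the CCLF label were 821, 835 and 875, below all 3 SAE libraries.

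Dusp5, the nuclear phosphatase selective for ERK, did not pass the test. It had 390, 386 and 370 counts with the CTL label and 340, 442 and 367 with the SAE label. The groups overlapped, and the SAE libraries spread around the CTL ones. The log2 fold was −0.01 ± 0.09 (adjusted p = 0.928), with a 95% interval of −0.20 to 0.17 from this SE. Counts with the CCLF label were 385, 367 and 375.

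Among the sprouty genes none passed the test. Spry4 had 305, 337 and 260 counts with the CTL label, 323, 335 and 280 with SAE and 312, 320 and 308 with CCLF. The groups overlapped, and the log2 fold was 0.04 ± 0.11 (adjusted p = 0.774, interval −0.17 to 0.25). Spry2 had 98, 82 and 73 counts with CTL, 112, 89 and 105 with SAE and 84, 99 and 83 with CCLF. Its SAE counts were higher on average, but the groups overlapped (log2 fold 0.26 ± 0.16, adjusted p = 0.194, interval −0.06 to 0.57). All 4 RefSeq transcripts of Spry1 were listed at 0 in all 9 libraries. A count of 0 allows up to 3 counts, which is 0.613 to 0.648 CPM at these totals and covers counting error only, not the low values of genes with several transcripts described above.

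The counts of Spry2 came from 2 RefSeq transcripts that did not move together. The curated transcript had 80, 70 and 66 counts with the CTL label, 61, 65 and 65 with SAE and 69, 66 and 69 with CCLF. In a fit of transcript rows its log2 fold was −0.19 ± 0.17 (adjusted p = 0.376). The predicted transcript had 18, 12 and 7 counts with CTL, 51, 24 and 40 with SAE and 15, 33 and 14 with CCLF. All its SAE counts lay above all its CTL counts, and its log2 fold was 1.61 ± 0.34 (adjusted p = 0.000381, in a fit where 47.4% of 8539 transcript rows were called). This transcript was picked out after its values were seen. Reads of 2 transcripts of a gene can be shared between them, and how they were divided here is not known.

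**Figure D2:**
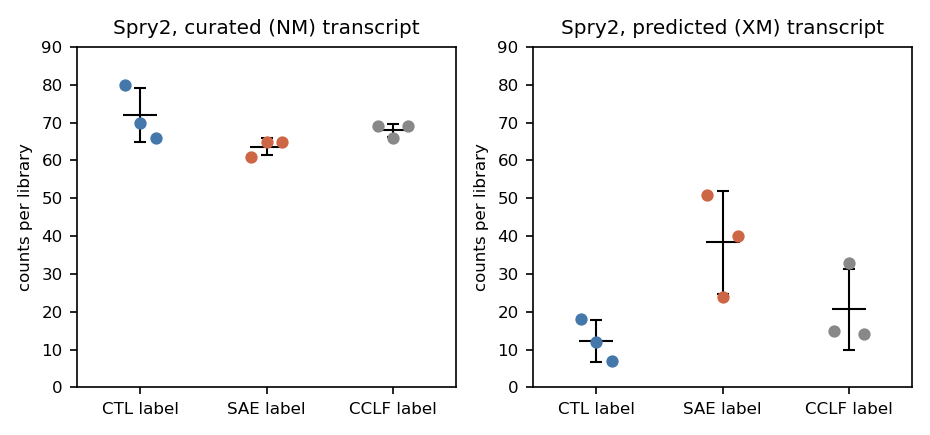
Counts per library (vertical axis, from 0) of the 2 RefSeq transcripts of Spry2, by group label, with mean ± SD of 3 libraries. The curated transcript runs from 61 to 80 counts over all libraries, and the predicted one is at 7 to 18 with the CTL label and 24 to 51 with the SAE label.

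Spred1, which works with neurofibromin to hold Ras inactive, was lower with the SAE label by a small margin. Its counts were 2691, 3271 and 2444 in the CTL libraries and 2214, 2230 and 2254 in the SAE libraries. The SAE libraries were nearly equal, while CTL replicate 2 was far above CTL replicate 3. The level went from 590 ± 85.6 to 468 ± 6.14 CPM (SD, n = 3), a log2 fold of −0.34 ± 0.11 (adjusted p = 0.0433). With the CCLF label it had 2518, 2357 and 2283 counts, of which the first lay within the CTL range and the others between the ranges. The call was lost without CTL replicate 1 (adjusted p = 0.0969) and without SAE replicate 1, 2 or 3 (0.144, 0.0927 and 0.183). It was also lost with limma-voom (adjusted p = 0.0597) and with a filter of 1 CPM in 3 libraries (0.0608), and adjusted p ranged from 3.99e-10 to 0.183 over 14 alternatives.

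Errfi1, the inhibitor of EGF receptor family kinases, also fell. It had 85, 90 and 81 counts with the CTL label and 34, 49 and 35 with the SAE label. No SAE library reached the lowest CTL library. The level fell from 18 ± 1.03 to 8.27 ± 1.89 CPM (SD, n = 3), a log2 fold of −1.13 ± 0.19 (adjusted p = 2.58e-05). Of the CCLF libraries, with 79, 68 and 39 counts, the third lay in the SAE range and the others between the ranges.

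Other dual-specificity phosphatase genes also moved in both directions. Of 20 on the list 8 were tested, and 3 rose, 2 fell and 3 did not pass (median log2 fold 0.28). Beside this, 23.7% of all tested genes were called higher and 23.9% lower, so the counts here are not read as results about a list. Dusp2, an inducible nuclear phosphatase of immune cells, had 74, 83 and 63 counts with CTL and 16, 16 and 17 with SAE, without overlap. It fell by 2.17 ± 0.23 on the log2 scale (adjusted p = 2.44e-08). Dusp3, Dusp19 and Dusp11, the last an RNA phosphatase rather than a MAPK phosphatase, rose with log2 folds of 0.50 ± 0.07, 1.60 ± 0.15 and 2.41 ± 0.38. Dusp28 fell by 0.26 ± 0.09 on that scale. Of 28 other genes listed as inhibitors of receptors, Ras or ERK, 11 were tested, 2 rose and 2 fell (median 0.08). Rasa1, a GTPase-activating protein for Ras, rose by 0.57 ± 0.08 and Spred3, a relative of Spred1, by 0.69 ± 0.15. The receptor inhibitor gene Lrig3 fell by 0.62 ± 0.17. Flrt3 fell by 1.32 ± 0.42 from 3.85 ± 0.7 CPM. It stands on this list, but its protein binds FGF receptors and is not known as their inhibitor. The call of Flrt3 was lost without SAE replicate 2 or 3 (adjusted p = 0.0584 and 0.0643) and with the DESeq2 Wald test (0.0512), and its range over 14 alternatives was 0.00235 to 0.0643. Spred2 (0.14 ± 0.12) and Nf1, the neurofibromin gene (0.13 ± 0.20), did not pass.

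**Figure D3:**
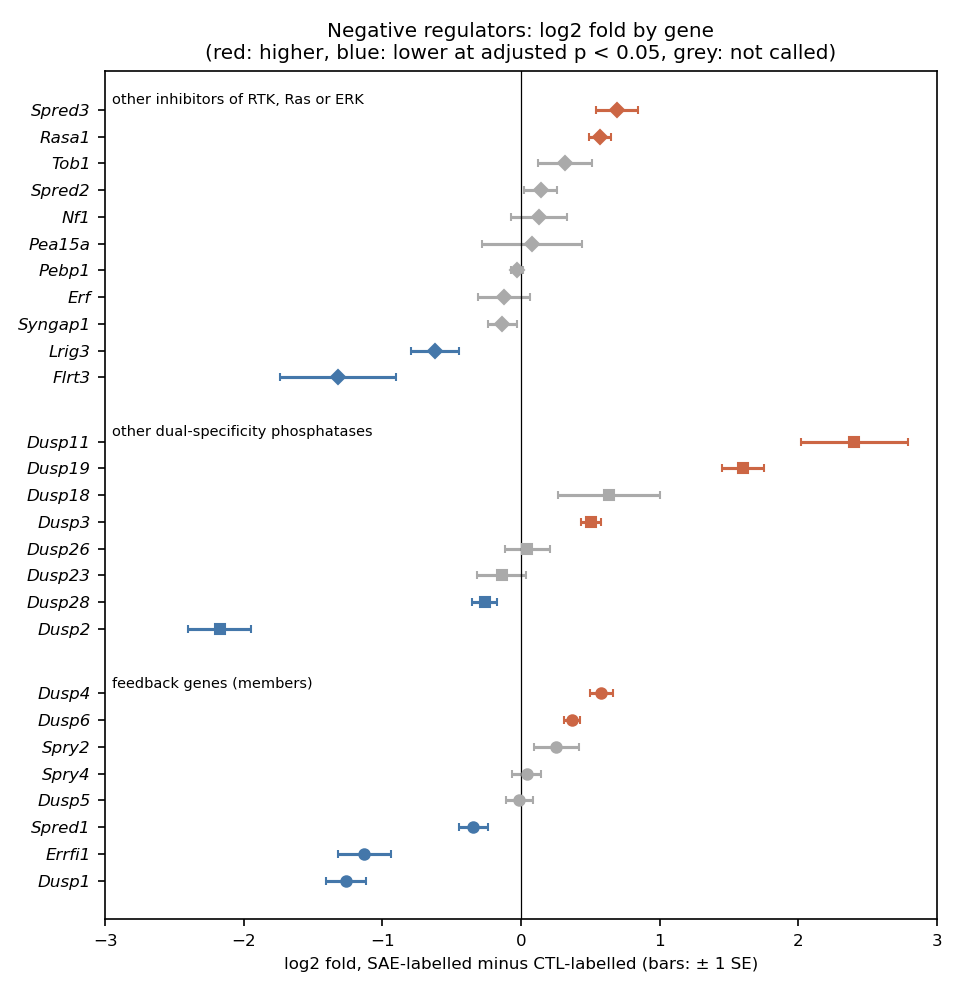
Log2 fold of the SAE label minus the CTL label (horizontal axis) for the 8 tested feedback genes, 8 other tested dual-specificity phosphatase genes and 11 other tested genes listed as inhibitors, with bars of ± 1 SE from 3 libraries per group. Flrt3 is on the last list but is not known as an inhibitor. Colour marks the call; each of the 3 sets holds genes on both sides of 0, from −2.17 for Dusp2 to 2.41 for Dusp11.

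Upstream of the relay, ligands and receptors also split, beside 23.7% of all tested genes called higher and 23.9% lower. Of 32 genes listed as ligands 13 were tested, 4 rose and 3 fell (median 0.27). The list also holds Fgf12, Fgf13 and Fgf14, whose proteins act inside the cell and are not ligands. Fgf13 (0.21 ± 0.06) is among the 4 that rose, and the median is the value of Fgf12 (0.27 ± 0.16). Fgf2, a broadly acting fibroblast growth factor gene, had 94.3 ± 18.2 CPM with CTL and 17 ± 1.16 with SAE (a fall with log2 fold −2.48 ± 0.14). Hbegf, a ligand of the EGF receptor, fell from 73.7 ± 19.8 to 31.4 ± 0.91 (−1.24 ± 0.17). Fgf10 (0.64 ± 0.11) and the neurotrophin gene Bdnf (0.90 ± 0.22) rose. Of 26 receptor tyrosine kinase genes 14 were tested, 7 rose and 3 fell (median 0.52). Of the EGF receptor family, which Errfi1 inhibits, Egfr (59.4 ± 11.2 to 36.6 ± 1.44 CPM, −0.71 ± 0.12) and Erbb2 (−0.84 ± 0.15) fell. Erbb3, named after its value was seen, rose (1.01 ± 0.15), and Erbb4, with 0 to 3 counts, was not tested. Of the vascular receptor genes Flt4 fell (−1.05 ± 0.14), while Flt1 (0.60 ± 0.07) and Kdr (1.03 ± 0.24), the latter named after its value was seen, rose.

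Of 37 genes of the Ras to ERK relay 20 were tested, 6 rose and 5 fell (median 0.00). The shares over all tested genes were 23.7% higher and 23.9% lower. The adaptor gene Shc3 rose from 347 ± 21.4 to 654 ± 30.3 CPM (0.91 ± 0.05). The exchange factor genes Rasgrf1 (0.98 ± 0.09) and Rasgrp1 (0.37 ± 0.04) rose, and Rasgrf2 fell by 0.32 ± 0.04 on the log2 scale. Of 37 genes listed for the p38 and JNK relays 13 were tested, 2 rose and 5 fell (median −0.59). Mapk11, the p38 beta gene, rose (1.04 ± 0.09), and the kinase gene Map3k9 (−1.32 ± 0.21) and the stress sensor gene Gadd45g (−1.05 ± 0.09) fell. Map3k14 (−1.66 ± 0.18), which also fell, stands on this list but encodes NIK, a kinase of the NF-kappaB pathway.

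Genes listed as induced by ERK signalling were mostly lower with the SAE label: 15 of 24 tested fell and 3 rose, of 40 on the list (median −0.63). Of all tested genes 23.9% were called lower. Elk1 (−0.23 ± 0.05), among the 15, encodes a factor that ERK activates and is not known as an ERK-induced transcript. A part of ERK in these values was not tested. Zfp36, which encodes an mRNA decay factor, fell from 103 ± 16.3 to 15.9 ± 1.99 CPM (−2.71 ± 0.13). Ccn1 (−2.51 ± 0.15), Ccn2 (−1.68 ± 0.10) and Klf2 (−1.27 ± 0.09) fell as well. The 3 that rose, named here after their values were seen, were Egr1 (0.87 ± 0.11), Egr4 (0.71 ± 0.08) and Nr4a1 (0.58 ± 0.21), while Fos did not pass (−0.40 ± 0.18). Dusp1 and Errfi1 are also known glucocorticoid targets. Of 15 other tested genes on a glucocorticoid list of 19, 11 fell and 0 rose (median −1.25), such as Fkbp5 (−1.34 ± 0.05), Klf9 (−0.83 ± 0.05) and Pdk4 (−1.75 ± 0.10). The other 4 did not pass: Tsc22d3 (−0.43 ± 0.22), Sgk1 (−0.31 ± 0.14), Sult1a1 (−0.36 ± 0.23) and Zbtb16 (0.06 ± 0.24), named after their values were seen. A part of glucocorticoids in the values of Dusp1 and Errfi1 was not tested. Lcn2 and Nfkbia stand on that list and on the inflammation list. All 12 tested inflammation genes of 18 fell (median −5.18). Over the 7 MAPK lists together 103 of 220 genes were tested, and 27 rose and 35 fell, which is 60.2% of those tested beside 47.6% of all genes.

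**Figure D4:**
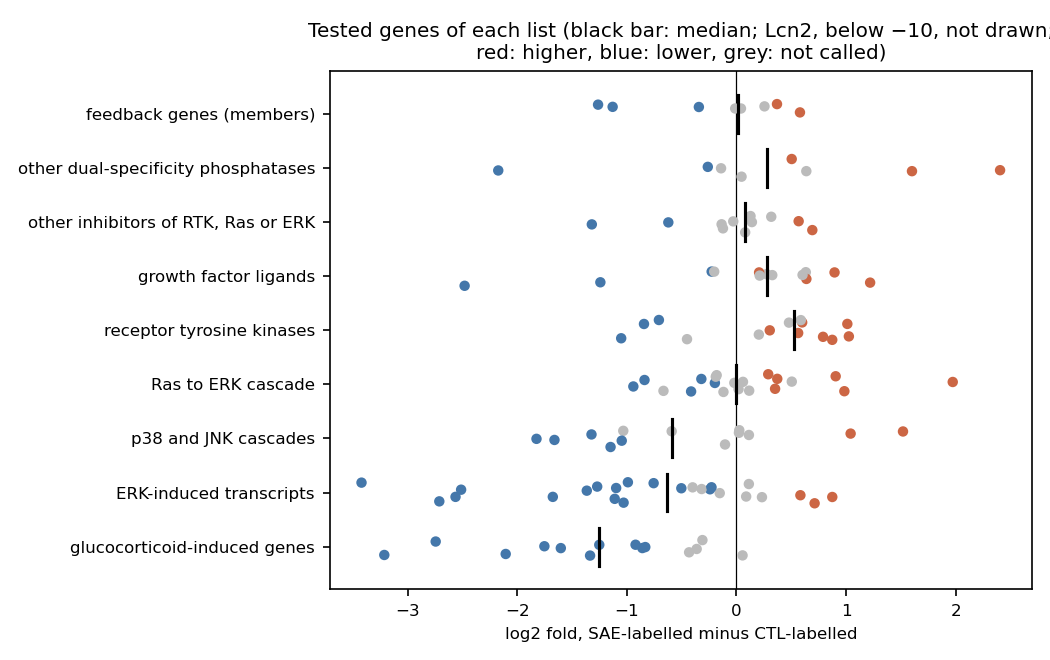
Log2 fold of the SAE label minus the CTL label (horizontal axis) for every tested gene of the feedback set, 7 MAPK lists and the glucocorticoid list; points are genes, coloured by call, and black bars are medians. Lcn2 (−10.31) is not drawn. Medians run from 0.52 for receptor tyrosine kinases to −1.25 for glucocorticoid-induced genes, with the feedback genes at 0.01.

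Markers of cell types moved in the same libraries, and their part in the differences of the feedback genes was not tested. The marker counts below stand beside 23.7% of all tested genes called higher and 23.9% lower. Summed oligodendrocyte markers were at 891 to 976 CPM with CTL and 1335 to 1525 with SAE (5 of 6 tested higher). Markers listed for oligodendrocyte precursors were at 362 to 479 and 800.4 to 839 (6 of 6 higher, Lhfpl3 at 0). Of those 6, Olig1, Olig2 and Sox10 are not particular to precursors, and Pdgfra, with 1 to 12 counts, was not tested. Endothelial markers were at 312 to 353 and 449 to 470 CPM (4 of 6 higher, 1 lower, Pecam1 and Mfsd2a at 0). Mural markers were at 379 to 423 and 599 to 698 (2 of 4 higher, Pdgfrb, Kcnj8 and Abcc9 at 0). Those 2 were Rgs5 and Cspg4, and Cspg4 is also among the 6 counted on the precursor list. Microglia markers had overlapping sums of 807 to 1131 and 1004 to 1093 (6 of 8 higher, 1 lower, P2ry12 at 0). Astrocyte markers also overlapped, at 3700 to 3948 and 3857 to 3894 (2 of 9 higher, 6 lower, Slc4a4 at 0). Neuron markers were at 8611 to 8798 and 9580 to 9864 (6 of 14 higher, 2 lower, 5 called in all with the DESeq2 Wald test or without CTL replicate 1). Neutrophil and monocyte markers were at 79.7 to 105 with CTL and 29 to 32.4 with SAE (3 of 3 lower, 5 of 12 at 0 among them S100a9 and Ly6g). Fibroblast markers overlapped at 231 to 262 and 223 to 382 (4 of 8 higher, 1 lower), as did choroid plexus markers at 737 to 1148 and 914 to 1821 (1 of 7 higher, 3 with the DESeq2 Wald test and 5 with the replicate block, Slc4a5 at 0). Red blood cell markers were at 581 to 602 and 456 to 563 (2 of 4 lower, Alas2 at 0).

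The libraries labelled CCLF had a mean level between the other 2 group means for all 5 called genes, and for 6 of the 8 tested. Across all tested genes this held in 83.5%, and across all called genes in 99.1%. Dusp1, with 93.9 ± 16.6 CPM (SD, n = 3), stood nearer to the SAE mean, and Dusp4 (68.5 ± 5.4) and Dusp6 (178 ± 5.96) nearer to the CTL mean. Errfi1 had 13.1 ± 4.36 and Spred1 504 ± 25.2 CPM. Spry4 (66.1 ± 1.29) and Dusp5 (79.3 ± 1.89) had narrower spreads with this label than with the others.

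By correlation of log2 CPM over the 9 libraries, the tested genes most like Dusp1 were Anapc7 (Pearson r = 0.986) and Borcs7 (0.971), and those most like Errfi1 were Hrct1 (0.975) and Gm32214 (0.974). For Dusp4 they were A030001D20Rik (0.985) and Klhl34 (0.979). For Dusp6 they were Tmem50b (0.986) and Tmem74 (0.98), and for Spred1 Psma6 (0.975) and Entpd3 (0.968). Uncalled genes had looser matches, from 0.924 for Tex50 with Spry2 to 0.96 for Gm10777 with Spry4. The points share 3 groups and their depth, so these values describe a pattern over libraries and carry no test.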

How the data were processed

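Whole-number counts per RefSeq transcript were deposited by the authors as 1 table of 9 columns, 1 per library. Per the submitters' processing notes, Salmon and fastp were used. Versions, settings, index and build: not given in the sources used here. Salmon estimates counts, so whole values may have been rounded. All 120312 transcripts were matched to symbols with RefSeq's GRCm38.p6 table and summed to 38911 genes.

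The 3 libraries labelled SAE were compared with the 3 labelled CTL: filterByExpr, scaling by trimmed mean of M values (factors 0.983 to 1.02), the robust quasi-likelihood test of edgeR, and Benjamini-Hochberg adjustment over 8213 genes. SE is the absolute log2 fold over the root of F, and an interval is 1.96 SE to each side. CPM values use factors over all 9 libraries. The fit was tested on simulated counts of 1 fixed dispersion with known changes. It recovered 85.6% of genes changed by 1 on the log2 scale and 100% of those changed by 2. There were 9 false calls in 7719 genes. Changes as small as those of Dusp4, Dusp6 and Spred1 were not simulated.

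The genes and lists were chosen with earlier results of these data known. Named were all 9 genes, from each list up to 4 genes with the smallest p, the first 3 of each marker list, the 2 best correlates of each gene (pseudocount 0.5 CPM) and Lcn2 and Cxcl10; not all are printed, and 1 result is not reported here. Camk2a, Spink8, other markers at 0, Dusp28, Spred2, Nf1, Fgf12, Fgf13, Fgf14, Erbb3, Erbb4, Kdr, Nfkbia, Tsc22d3, Sgk1, Sult1a1, Zbtb16, Actb, Gapdh, Egr1, Egr4, Nr4a1, Fos and Elk1 were named after values were seen. Olig1, Olig2 and Sox10 were also named after values were seen. The labels call replicates biological, and the design gives 9 mice for 9 libraries. Over all tested genes, same-numbered CTL and SAE libraries had correlations of deviations of 0.03, −0.01 and 0.02. These values cover all genes together, and pairing in a part of the genes was not tested. Averaged over genes, every 2 libraries of a group differed by more than sampling noise (chi-square per gene of 2.34 or more). That average does not speak for each gene. Variance over mean was under 1 in 50.9% of genes with the CCLF label, 35.6% with CTL and 36.7% with SAE.

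Versions were Python 3.11.15 (matplotlib 3.10.9, pandas 2.3.3, numpy 2.4.6) and R 4.3.3 (DESeq2 1.42.0, limma 3.58.1, edgeR 4.0.16). The alternatives tried were limma-voom, the Wald test and the size factors of DESeq2, 1 CPM in 3 libraries or no filter, all 9 libraries, the replicate block, transcript rows, genes with 1 transcript, and each library left out.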

Additional observations from a re-analysis of the deposited data

How the results depend on the processing

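Dusp1, Dusp4, Dusp6 and Errfi1 kept their direction and call under every alternative run for them, with log2 folds of −1.45 to −1.15, 0.52 to 0.65, 0.34 to 0.42 and −1.32 to −1.03. Spred1 lost its call with limma-voom (−0.33), with 1 CPM in 3 libraries (−0.34), and without CTL replicate 1 or any 1 SAE library (−0.45 to −0.24 over the 6 libraries left out in turn); the cause was not tested. Uncalled genes changed sign, with the cause not tested: Dusp5 among genes with 1 transcript (0.018) and with a library left out (−0.13 to 0.076), Spry4 with a library left out (−0.070 to 0.13), and Spry2 in its most counted transcript (−0.19). Of the 9 genes Errfi1, Spred1 and Spry2 drop out, as does Spry1, when only genes with 1 RefSeq transcript are used. There 4776 genes were tested, fewer by construction, and 2565 were called (1281 higher, 1284 lower), with 3 of the feedback genes (1 lower) and 35 genes of the 7 MAPK lists. All other alternatives called 3186 (DESeq2 Wald test) to 4318 (all 9 libraries) of the genes tested. The replicate numbers did not pair the libraries over all tested genes together, and pairing in a part of them was not tested. With the replicate block 3892 genes and 5 feedback genes were called, and Spred1 had an adjusted p of 0.000246. No call among the 9 genes changed with it. Named correlates and markers that were uncalled also changed sign with a library left out: Hbb-bt (−0.13 to 0.017), Fam133b (−0.035 to 0.054), Btbd17 (−0.19 to 0.10), Gm10777 (−0.042 to 0.61) and E130308A19Rik (−0.13 to 0.29, and −0.97 in its most counted transcript). Spry1, which has several RefSeq transcripts, could not be measured in this table, and Errfi1 and the predicted Spry2 transcript rest on few counts.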
